A study of Mus musculus with 365 samples.

Results

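H2-Aa encodes the alpha chain of the MHC class II molecule I-A, and 55 of the 213 cells of a sorted bone marrow progenitor population called TN held it at 25 CPM or more, where CPM is the reads of a gene scaled to 1000000 reads per cell. These 55 cells are the H2-Aa positive cells and the other 158 the H2-Aa negative cells. The sides were chosen by H2-Aa itself, so its level is given as a description and not as a result. The whole series holds 365 single cells, 213 TN and 152 Ly6D+, all from femoral bone marrow of C57BL/6 mice carrying a Flt3 ligand transgene (Flt3Ltg) and all from pools of 2 mice. Both are parts of EPLM, a compartment of early progenitors that can still give lymphoid and myeloid cells. The labels expand TN as triple negative, which in this compartment usually stands for cells without surface Ly6D, SiglecH and CD11c, while the cells of the other population carry Ly6D. No mouse without the transgene is part of the design, and Flt3 ligand drives dendritic and early lymphoid progenitors to expand, so the shares of cells below belong to that setting. The TN cells were captured on 3 chips (chips 1, 2 and 3) and the Ly6D+ cells on 3 others (chips 4, 5 and 6).

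MHC class II molecules are pairs of an alpha and a beta chain that show peptides from taken-up proteins to CD4 T cells. The invariant chain, encoded by Cd74, holds the groove of the new pair until the H2-DM proteins exchange its remnant for a peptide, and H2-DO proteins restrain that exchange. Ciita is the coactivator that switches the class II genes on, through factors bound at a shared arrangement of promoter elements. In bone marrow, class II transcripts mark dendritic cells, their late precursors and maturing B cells, whereas most early progenitors hold little of them.

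H2-Aa positive cells made up 19 of 75, 21 of 69 and 15 of 69 cells on TN chips 1, 2 and 3, or 25.3%, 30.4% and 21.7%. Among the 158 negative cells 143 had no H2-Aa read at all and 15 had reads below the limit. The 3 cells just under the limit held 18.9, 22.9 and 24.4 CPM, and the 3 just above it 28.4, 28.4 and 32.1 CPM. Within the positive side the level spanned a wide range. The lowest, median and highest values were 28.4, 1014 and 15010 CPM on chip 1, 28.4, 3624 and 14350 CPM on chip 2, and 37.8, 793.5 and 7050 CPM on chip 3. In all 32 cells held 1000 CPM or more, 15 held 100 to under 1000 CPM and 8 held less than 100 CPM. Ly6D+ cells were positive by the same limit in 3 of 40, 12 of 60 and 6 of 52 cells. The share was 25.84% ± 4.37 in TN and 13.01% ± 6.38 in Ly6D+ (SD, n = 3 chips each), and the lowest TN chip lay above the highest Ly6D+ chip, 20%. An exact two-sided permutation test gave p = 0.1, the smallest that 3 chips against 3 can reach.

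Positive and negative cells had similar read depth, with medians of 731686 and 808019 reads per cell. Their sums per chip differed, at 10833139 to 15777229 reads on the positive side and 39102937 to 47145161 on the negative side, because there were fewer positive cells. The labels do not name the 3 surface proteins of the sort, and transcripts of the 3 that the term usually stands for were uncommon on both sides. Ly6d was detected in 7 of 55 positive and 25 of 158 negative cells, Siglech in 5 and 16, and Itgax, which encodes CD11c, in 4 and 16. Detected here means 5 or more reads after each cell was thinned to 200000 reads, which equals 25 CPM. Xist was detected on chip 2 alone, in 12 of its 21 positive and 29 of its 48 negative cells, so cells with Xist took a like share of both sides there.

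The class II genes H2-Ab1, H2-Eb1 and Cd74 and the gene Id2 were higher in positive cells on every chip, and these 4 were the genes that passed the test. H2-Ab1, the beta chain that pairs with H2-Aa, stood at 2212, 2813 and 1193 CPM in the summed positive cells of chips 1, 2 and 3, and at 51.1, 27.4 and 27.6 CPM in the negative cells. The lowest positive chip was far above the highest negative chip, and the log2 fold change was 5.85 ± 0.37 (SE, n = 3 chips, adjusted p = 0.0103 by edgeR). H2-Eb1, the beta chain of the second class II molecule, I-E, stood at 853, 1653 and 532 CPM against 4.67, 17.6 and 12.6 CPM. C57BL/6 mice lack a working alpha chain gene for I-E, so the H2-Eb1 transcript is read here without a partner. Its sides did not overlap either, with a log2 fold change of 6.49 ± 0.53 (SE, adjusted p = 0.0193 by edgeR). Cd74, the invariant chain, stood at 1870, 3824 and 2477 CPM against 41.3, 35.5 and 92.4 CPM. Again no chip overlapped, and the log2 fold change was 5.66 ± 0.45 (SE, adjusted p = 0.0193 by edgeR). Id2, which encodes an inhibitor of E-protein transcription factors that conventional dendritic cells and innate lymphoid cells need, was the 1 gene from outside the class II group. It stood at 1684, 2971 and 4162 CPM against 202, 223 and 751 CPM, with a log2 fold change of 3.09 ± 0.29 (SE, adjusted p = 0.0338 by edgeR).

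The test covered 10854 genes, and these 4 genes were 0.0369% of them. No gene was called lower. At an unadjusted p under 0.05 there were 593 genes, while DESeq2 called 671 (183 higher and 488 lower) and limma on the means of log2 values called 1026 (62 higher and 964 lower). H2-Ab1, H2-Eb1, Cd74 and Id2 were called by all of these. The 4 calls rested on chip 2: without it edgeR called no gene (334 at an unadjusted p under 0.05), with log2 fold changes of 5.48 for H2-Ab1, 6.50 for H2-Eb1, 5.17 for Cd74 and 2.81 for Id2, and adjusted p from 0.119 to 0.772. Without the cells that held Xist, all of them on chip 2, edgeR also called no gene (429 at an unadjusted p under 0.05), and the log2 fold changes were 6.18, 6.41, 5.75 and 3.53. Id2 was also no longer called without chip 1 (adjusted p = 0.0624) or chip 3 (adjusted p = 0.11). The median log2 fold change of all tested genes was −0.43 with TMM scaling and −0.66 without it, so a typical gene lay below 0, and each fold change is to be read against that.

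**Figure D1:**
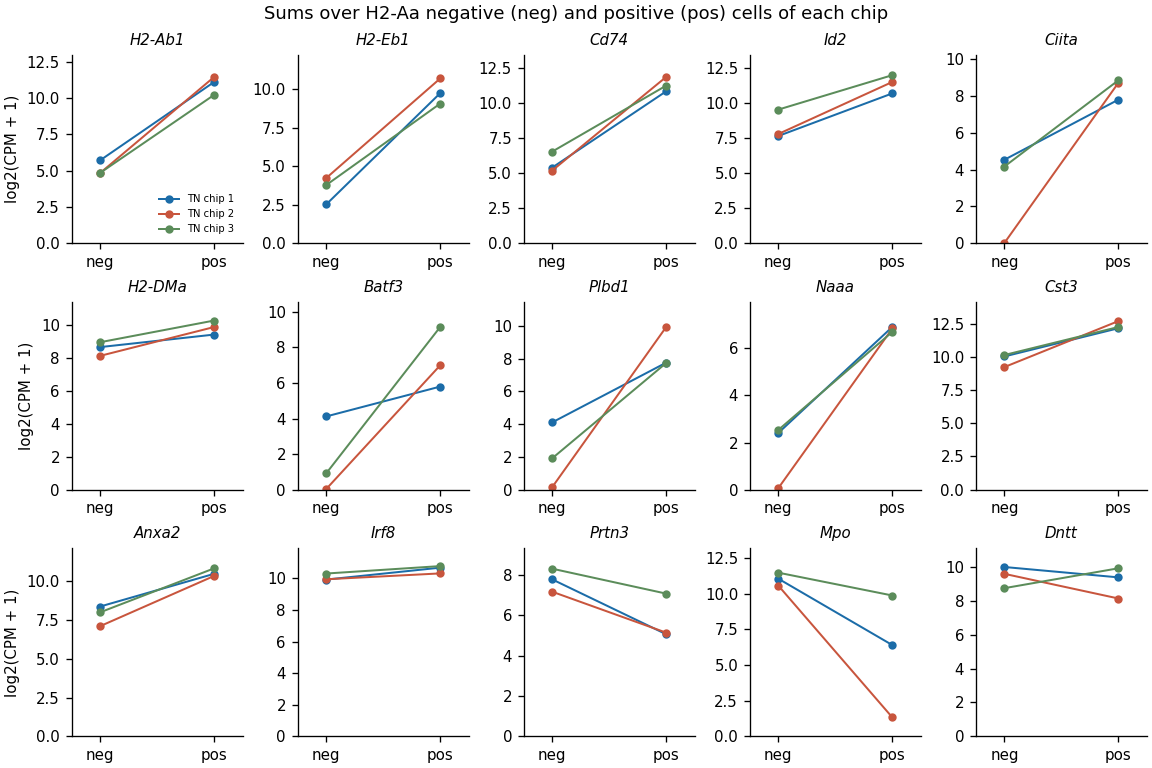
Log2(CPM + 1) of 15 genes in the summed H2-Aa negative (neg) and positive (pos) cells of each TN chip, with 1 line per chip joining its sides. H2-Ab1, H2-Eb1, Cd74 and Id2, the 4 genes past the threshold, rise steeply on all 3 chips, Mpo and Prtn3 lie lower on the positive side of all 3, and the lines of Dntt cross.

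The wider class II machinery lay to the same side, with more spread between chips. Of 10 listed class II genes other than H2-Aa, 9 were tested, 3 were called higher, and 7 were higher on all 3 chips, against 9.86% of all tested genes. None was lower on all 3 chips, against 20.7% of all tested genes, and the median log2 fold change of the 9 was 2.50. Ciita stood at 224, 425 and 466 CPM in positive and at 22.2, 0 and 16.9 CPM in negative cells, so the sides did not overlap. The log2 fold change was 5.70 ± 1.99 (SE, adjusted p = 0.879 by edgeR), and the gene was detected in 14 of 55 positive and 4 of 158 negative cells. Its locus overlaps Dexi in the RefSeq annotation, and unstranded reads of the overlap cannot be told apart. H2-DMa, the alpha chain of the peptide exchanger, stood at 690, 949 and 1248 CPM against 406, 281 and 499 CPM, with a log2 fold change of 1.28 ± 0.29 (SE, adjusted p = 0.841 by edgeR). It was detected in 130 of the 158 negative cells, so its transcript was widespread where H2-Aa was not, though its locus overlaps the abundant Brd2. The beta chains H2-DMb1 (36.2, 88.7 and 146 CPM against 15.8, 17.4 and 17.3 CPM) and H2-DMb2 (8.42, 48.8 and 11.3 CPM against 2.46, 8.02 and 1.30 CPM) were also higher on every chip and not called. The chains of H2-DO showed no common direction. H2-Oa stood at 66.9, 163 and 15.2 CPM against 21.9, 28.4 and 78.7 CPM, and H2-Ob at 227, 3.81 and 74.2 CPM against 123, 93.4 and 50.4 CPM. H2-Eb2 had too few reads to test. Class II genes have near-identical relatives, and how the counting divided reads between them is not stated in these sources.

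Promoters of 5 class II genes are shown because members that were higher with H2-Aa on every chip and members that were not hold the same arrangement of letters. Each line gives the 120 bases before the start site, 5′ to 3′ on the gene's strand, from the RefSeq promoter table of build GRCm38.p6. Capitals mark GNAAC, part of the element known as the X box, and GATTGG, the Y box read as an inverted CCAAT box.
H2-Aa (chr17:34287824-34287943, minus strand): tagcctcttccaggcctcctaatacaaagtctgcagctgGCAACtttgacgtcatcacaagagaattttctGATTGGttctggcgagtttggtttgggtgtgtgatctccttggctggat
H2-Eb1 (chr17:34305747-34305866, plus strand): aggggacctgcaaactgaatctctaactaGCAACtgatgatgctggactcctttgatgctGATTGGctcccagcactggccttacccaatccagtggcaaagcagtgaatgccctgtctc
H2-DMb1 (chr17:34153071-34153190, plus strand): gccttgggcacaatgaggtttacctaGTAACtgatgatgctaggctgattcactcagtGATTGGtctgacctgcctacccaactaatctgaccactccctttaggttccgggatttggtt
H2-Oa (chr17:34092259-34092378, plus strand): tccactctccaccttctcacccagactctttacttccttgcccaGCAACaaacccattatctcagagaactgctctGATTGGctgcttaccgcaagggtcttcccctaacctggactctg
H2-Ob (chr17:34238785-34238904, plus strand): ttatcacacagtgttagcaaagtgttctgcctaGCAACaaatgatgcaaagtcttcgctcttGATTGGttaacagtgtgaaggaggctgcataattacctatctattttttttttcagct
The gap between the marked words was 27 bases in H2-Aa, H2-DMb1 and H2-Oa, 26 in H2-Eb1 and 24 in H2-Ob. GATTGG, on either strand, was found in 14.6% of the 250-base stretches before 32851 RefSeq start sites, and GNAAC followed after 20 to 30 bases by GATTGG in 0.551% of them (181). The pattern was set after these sequences were seen, so the share is a description. H2-Eb2 held both words as well, H2-DMb2 held GATTGG without the other word at that distance, and of the 2 entries of H2-DMa 1 held GATTGG. Neither word pattern was found before the start of Id2. The promoters of H2-Ab1, Cd74 and Ciita were not analysed here. Thus H2-Eb1, which was called, H2-DMb1, which was not, and H2-Oa and H2-Ob, which had no common direction, share the pattern with H2-Aa. A match of letters is not evidence that a factor bound there.

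In single cells the class II genes were found together. All of H2-Ab1, H2-Eb1 and Cd74 were detected in 27 of 55 positive cells, which was 42.1%, 61.9% and 40.0% of those on chips 1, 2 and 3, and in 3 of 158 negative cells. None of the 3 was detected in 9 positive and 93 negative cells. The negative side was thus not free of class II transcripts: Cd74 was detected in 47 of its cells and H2-Ab1 in 30, but H2-Eb1 in only 8. Id2 was detected in all 27 positive cells that held the 3 genes, and in 42 of 55 positive and 53 of 158 negative cells in all. Over the 55 positive cells the level of Cd74 followed that of H2-Aa, with Spearman correlations of 0.90, 0.94 and 0.79 within chips 1, 2 and 3 (19, 21 and 15 cells). The same correlations were 0.85, 0.82 and 0.73 for H2-Ab1 and 0.74, 0.32 and 0.70 for Id2. The number of genes detected per cell ran the other way, at −0.82, −0.76 and −0.67. Cells of 1 chip share their library preparation, so these correlations are descriptions.

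**Figure D2:**
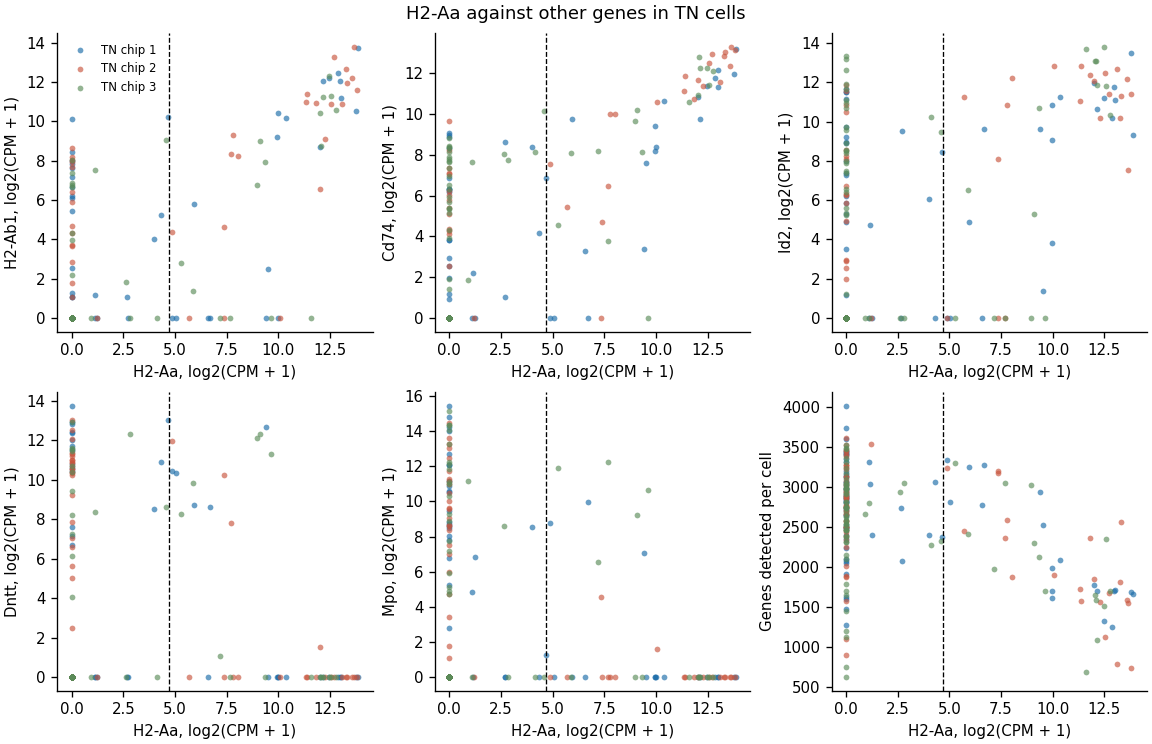
Each point is 1 of 213 TN cells, with H2-Aa as log2(CPM + 1) on the horizontal axis, coloured by chip, and the dashed line marks the limit of 25 CPM. The vertical axes give H2-Ab1, Cd74, Id2, Dntt and Mpo as log2(CPM + 1) and the number of genes detected per cell; Cd74 climbs with H2-Aa, while Dntt and Mpo are at or near 0 in the cells with the highest H2-Aa.

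Of 6807 genes detected in 10% or more of TN cells, those most like H2-Aa across cells, by the mean of the Spearman correlations within the 3 chips, were led by Mir5107 (0.715), whose locus lies within Cd74 and whose reads cannot be told from it. H2-Eb1 (0.702), Cd74 (0.686), H2-Ab1 (0.603), Batf3 (0.538), Slamf7 (0.493), Id2 (0.462), Plbd1 (0.451), Ckb (0.388) and Actb (0.379) followed. The most opposite genes were Adgrg3 (−0.405), Rrm1 (−0.395), Cd93 (−0.393), Bzw1 (−0.381), Zeb2 (−0.379), Tmem229b (−0.374), Igfbp4 (−0.373), Tfdp1 (−0.372), Bcl2 (−0.368) and Ccnd2 (−0.359). Rrm1 encodes a subunit of the enzyme that makes DNA precursors, Tfdp1 a partner of the E2F factors and Ccnd2 cyclin D2, all tied to cell division. Cd93 encodes a surface protein of early progenitors. Each value comes from cells that share a chip and differ in the number of genes detected.

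Genes of conventional dendritic cells also lay on the positive side. Of 20 listed genes 16 were tested, 1 of them, Id2, was called, 8 were higher on all 3 chips against 9.86% of all genes, and 1, Clec10a, was lower against 20.7%. The median log2 fold change was 1.13. Batf3, a transcription factor required for the cross-presenting type of conventional dendritic cell, stood at 54.6, 127 and 569 CPM in positive and at 16.4, 0.0229 and 0.885 CPM in negative cells. It was detected in 23 of 55 positive and 5 of 158 negative cells, with a log2 fold change of 8.44 ± 2.59 (SE, adjusted p = 0.879 by edgeR), and was called without chip 1 (adjusted p = 0.0425). Plbd1, a phospholipase B-like protein used as a marker of dendritic cells, stood at 217, 990 and 214 CPM against 16.3, 0.115 and 2.78 CPM. It was detected in 19 positive and 7 negative cells, with a log2 fold change of 6.78 ± 1.81 (SE, adjusted p = 0.879 by edgeR). Naaa, an amidase of lysosomes, stood at 120, 114 and 103 CPM against 4.31, 0.0459 and 4.79 CPM, in 16 and 4 cells. For these 3 genes no positive chip overlapped a negative one, which is given as a description only. The fitted error was large, and few cells carried the reads. Clec9a, a receptor for dead cells on cross-presenting dendritic cells, was detected in 13 positive and 14 negative cells and was higher on chips 1 and 2 but not on chip 3. Zbtb46 and Xcr1, which mark committed and mature conventional dendritic cells, were detected in no positive cell, and Cadm1 had no read on that side. Zbtb46 was rare on the negative side as well, in 1 of 158 cells. By counting error alone, 0 of 55 cells allows a share of up to 5.45% of cells at the detection limit, and says nothing of cells that express the gene below it.

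Transcripts that dendritic cells hold in large amounts but that other progenitors hold too differed by less. Cst3, the gene of cystatin C, which inhibits cathepsins, stood at 4581, 6661 and 4887 CPM against 1048, 602 and 1130 CPM, with no overlap and a log2 fold change of 2.56 ± 0.30 (SE, adjusted p = 0.101 by edgeR). It was detected in 50 of 55 positive and 140 of 158 negative cells, so the sides differed in amount more than in presence. Cst3 was called at limits of 50 CPM (adjusted p = 0.0322) and 100 CPM (adjusted p = 0.0116). Wdfy4, needed for cross-presentation and overlapping Lrrc18 in the annotation, stood at 596, 739 and 517 CPM against 357, 195 and 152 CPM, with a log2 fold change of 1.48 ± 0.36 (SE, adjusted p = 0.879 by edgeR). Irf8, a master factor of dendritic and monocyte lineages, stood at 1640, 1274 and 1756 CPM against 971, 985 and 1267 CPM. Its lowest positive chip lay just above its highest negative chip, and it was detected in 42 of 55 positive and 130 of 158 negative cells, with a log2 fold change of 0.53 ± 0.20 (SE, adjusted p = 0.879 by edgeR). Irf4 was detected in 1 positive and 3 negative cells. Spi1 stood at 26.4, 34.8 and 7.98 CPM against 23.1, 29.7 and 18.4 CPM, with no common direction. Flt3, the receptor of the transgene's product, stood at 410, 152 and 187 CPM against 273, 358 and 319 CPM, and was detected in 25 of 55 positive and 98 of 158 negative cells.

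Genes of the cytoskeleton, annexins and S100 proteins lay higher in positive cells almost as a whole. All 22 listed genes were tested, 18 were higher on all 3 chips against 9.86% of all genes, none was lower, and the median log2 fold change was 1.49, but none was called by edgeR (15 were higher at an unadjusted p under 0.05). Anxa2, a membrane-binding protein, stood at 1425, 1297 and 1821 CPM against 329, 136 and 254 CPM. Its sides did not overlap, the log2 fold change was 2.74 ± 0.30 (SE, adjusted p = 0.0827 by edgeR), and it was called in 6 of 18 other settings. Anxa1 stood at 357, 688 and 812 CPM against 138, 92.3 and 122 CPM. Tmsb4x, which binds actin monomers, stood at 3581, 5451 and 5855 CPM against 1717, 1439 and 2033 CPM, with a log2 fold change of 1.50 ± 0.20 (SE, adjusted p = 0.194 by edgeR). Lgals3, a galectin, stood at 198, 637 and 431 CPM against 31.8, 49.0 and 74.9 CPM and was detected in 26 of 55 positive and 18 of 158 negative cells. Actb stood at 10640, 22080 and 19160 CPM against 6005, 8420 and 11340 CPM, where the positive value of chip 1 lay below the negative value of chip 3.

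Other genes with no overlap between sides, named after their values were seen, were Samd9l (617, 906 and 981 CPM against 8.86, 45.5 and 143 CPM), Slamf7 (207, 182 and 153 CPM against 12.6, 0.779 and 1.84 CPM) and Ccr2 (888, 577 and 584 CPM against 212, 228 and 232 CPM). Samd9l is an interferon-induced gene, Slamf7 a receptor of the SLAM family and Ccr2 a chemokine receptor of monocytes and dendritic precursors. Their log2 fold changes were 4.39 ± 0.69, 6.12 ± 1.11 and 1.58 ± 0.31 (SE), with edgeR adjusted p of 0.365, 0.563 and 0.752. The share of all tested genes whose sides did not overlap is not given here. For any gene without a call, in this or other paragraphs, a lack of overlap is therefore a description. The interferon response list as a whole had 1 of 15 members higher and 3 lower on all 3 chips, near the 9.86% and 20.7% of all tested genes. The same shares of all genes apply to the lists that follow. MHC class I genes had 5 of 11 higher and 1 lower. Among them B2m, the light chain of class I, was detected in every TN cell and stood at 2310, 3247 and 5768 CPM against 1953, 2394 and 4140 CPM. Lysosomal and antigen-processing genes had 3 of 12 higher (Ctss, Ifi30 and Cst3) and none lower. Immediate-early genes, which are known to respond to handling, had 7 of 16 higher and 2 lower. In none of these lists was a gene called by edgeR, while 0, 4, 4 and 5 members, in the order given, were higher at an unadjusted p under 0.05. Of all 10854 tested genes 593 passed that p in either direction.

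**Figure D3:**
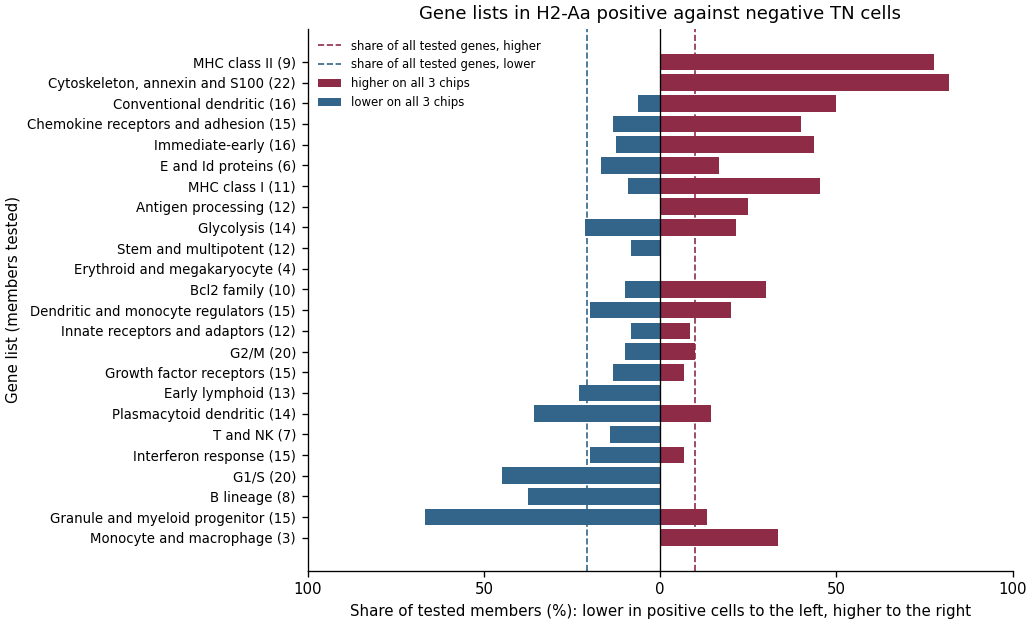
For each of 24 gene lists, bars give the share of tested members that were higher (to the right) or lower (to the left) in H2-Aa positive cells on all 3 TN chips, with the number tested in brackets, ordered by median log2 fold change. Dashed lines mark the same shares over all tested genes, 9.86% and 20.7%; class II, cytoskeleton and conventional dendritic genes reach far to the right, and granule and myeloid, G1/S, B lineage and plasmacytoid dendritic genes to the left.

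Myeloid granule genes lay on the negative side. Of 20 listed genes 15 were tested, 10 were lower on all 3 chips against 20.7% of all genes, 2 (Ly86 and Ccr2) were higher, and the median log2 fold change was −1.76, with no call by edgeR and 9 lower at an unadjusted p under 0.05. Mpo, which encodes myeloperoxidase, stood at 82.9, 1.50 and 932 CPM in positive and at 2111, 1509 and 2828 CPM in negative cells. The sides did not overlap, and the log2 fold change was −4.97 ± 1.61 (SE, adjusted p = 0.879 by edgeR). Prtn3, which encodes proteinase 3, stood at 32.2, 34.1 and 133 CPM against 218, 142 and 315 CPM, a narrow gap, with a log2 fold change of −2.02 ± 0.56 (SE, adjusted p = 0.879 by edgeR). Elane, neutrophil elastase, had no read in the positive cells and stood at 162, 53.8 and 175 CPM in the negative cells, where 23 of 158 cells held it. Csf1r, the receptor of the macrophage growth factor, stood at 77.3, 76.0 and 44.1 CPM against 125, 113 and 147 CPM and was detected in 8 positive and 57 negative cells. Mpo or Prtn3 was detected in 14 of 55 positive cells and in 93 of 158 negative cells, or in 26.3%, 14.3% and 40.0% against 58.9%, 56.3% and 61.1% on chips 1, 2 and 3. Since most negative cells held these granule genes, the contrast was repeated without them: against the other negative cells H2-Ab1 was called, and Cd74, H2-Eb1 and Id2 had log2 fold changes of 5.30, 5.28 and 2.04 (adjusted p = 0.0654, 0.0932 and 0.232).

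Fewer early lymphoid genes were detected per positive cell on all 3 chips, but only cells with much H2-Aa were low throughout. The means were 3.00, 1.91 and 2.87 against 3.55, 4.83 and 3.04 of 15 (exact sign permutation p = 0.25, the smallest 3 chips allow). Positive cells with 1000 CPM or more of H2-Aa averaged 1.03, those with less 4.65, and negative cells 3.77. By chip, positive cells under 1000 CPM averaged 5.5, 3.71 and 4.625. These values lay above the negative cells on chips 1 and 3 and below them on chip 2. The split at 1000 CPM was set after the values were seen and is a description. Dntt, which encodes the terminal transferase of lymphoid progenitors, stood at 668, 281 and 970 CPM against 1022, 773 and 429 CPM, lower on chips 1 and 2 and higher on chip 3. It was detected in 13 of 55 positive and 52 of 158 negative cells. Il7r, the interleukin 7 receptor, stood at 654, 340 and 1.60 CPM against 210, 224 and 126 CPM. Of 13 tested early lymphoid genes none was higher and 3 were lower on all 3 chips, against 9.86% and 20.7% of all tested genes. Ly6d was among the 3 (30.2, 13.5 and 128 CPM against 94.8, 212 and 303 CPM, log2 fold change −2.24 ± 0.74, SE, edgeR adjusted p = 0.879). Among B-lineage genes Cd79a, Pax5, Vpreb1, Vpreb2, Igll1 and Pou2af1 had no read in any positive cell, and Pou2af1 had none in any negative cell either. Ebf1, a B-lineage factor, was detected in 3 positive and 5 negative cells. Of 8 tested B-lineage genes none was higher and 3 were lower on all 3 chips, where all genes gave 9.86% and 20.7%. The summed level of the 17 B lineage genes was 83.5 to 340.0 CPM over the positive chips and 254 to 805 CPM over the negative chips, and its part in the class II result was not tested. Of 14 listed monocyte and macrophage genes 9, with C1qa, C1qc and Mertk among them, had no read in positive cells. In negative cells 8 had no read, and C1qa, C1qc and Mertk were among these too. Of the 14 genes 3 were tested. The list summed to 147 to 609 CPM in positive and 126 to 273 CPM in negative cells. Cd68, a lysosomal protein of macrophages and dendritic cells, was higher on all 3 chips (161, 126 and 232 CPM against 62.7, 41.1 and 64.3 CPM, edgeR p = 0.0249 unadjusted and 0.879 adjusted). Plasmacytoid dendritic genes had 2 of 14 higher and 5 lower on all 3 chips, beside the same 9.86% and 20.7% of all genes. Among them Siglech stood at 74.9, 102 and 0 CPM against 22.6, 24.6 and 66.3 CPM, and Tcf4, an E protein that drives that lineage, at 250, 313 and 509 CPM against 314, 429 and 555 CPM. Kit, the stem cell factor receptor, was detected in 19 of 55 and 54 of 158 cells and had no common direction.

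Positive cells held fewer different transcripts. The mean number of genes detected per cell was 2164, 1984 and 2028 on the positive and 2762, 2741 and 2558 on the negative side of chips 1, 2 and 3, or 2059 ± 93 against 2687 ± 112 (SD, n = 3 chips). Every positive chip lay below every negative chip, and the difference was −629 ± 116 genes (SD). An exact sign permutation over the 3 chip differences gave p = 0.25, the smallest that 3 chips allow, and 0.342 adjusted over the 26 quantities tested in this way. Division genes followed. Positive cells held 6.78 ± 1.71 and negative cells 12.3 ± 0.1 of 20 G1/S genes, which are used to copy DNA, and 4.45 ± 1.15 against 7.32 ± 0.35 of 20 G2/M genes (SD, n = 3 chips). Both were lower on 3 of 3 chips (exact p = 0.25 each). In the sums per chip all 20 G1/S genes had a log2 fold change below 0, with a median of −0.89, and 9 were lower on all 3 chips against 20.7% of all genes. For G2/M, 2 of 20 were lower and 2 higher on all 3 chips, against 20.7% and 9.86% of all genes. Their median log2 fold change was −0.32, against −0.43 over all tested genes. The sums per chip thus did not set G2/M genes lower than other genes. The other way round, class II members stood at 1.94 ± 0.13 and 4.05 ± 0.46 of 10, conventional dendritic members stood at 4.01 ± 0.23 and 5.79 ± 0.79 of 20, and cytoskeleton members at 14.6 ± 0.5 and 16.1 ± 0.5 of 22 (negative then positive, SD, n = 3 chips).

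The number of genes detected moved with H2-Aa, so the sides were also compared among cells with 1000 to 2500 detected genes. There edgeR called Cd74 and H2-Ab1, while H2-Eb1 had a log2 fold change of 5.92 (adjusted p = 0.0927) and Id2 1.89 (adjusted p = 0.663). Within that window positive cells held 4.06 ± 0.34 and negative cells 7.67 ± 1.01 G1/S genes, 16.8 ± 0.9 against 14.0 ± 1.2 cytoskeleton genes, 4.58 ± 0.46 against 2.01 ± 0.33 class II genes and 6.38 ± 1.29 against 3.86 ± 0.71 conventional dendritic genes (SD, n = 3 chips). Early lymphoid genes stood at 1.70 ± 0.74 against 3.58 ± 1.06, a wider gap than over all cells. G2/M genes stood at 2.87 ± 1.75 against 3.76 ± 0.67, with chip 3 the other way (4.73 against 3.41), and granule and myeloid genes at 2.66 ± 0.30 against 2.61 ± 0.62, where all cells gave 2.79 ± 0.27 against 4.18 ± 0.46. The mean number of genes still differed there, at 1783 ± 88 and 2091 ± 55. The part of the gene number in the other results was not tested.

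**Figure D4:**
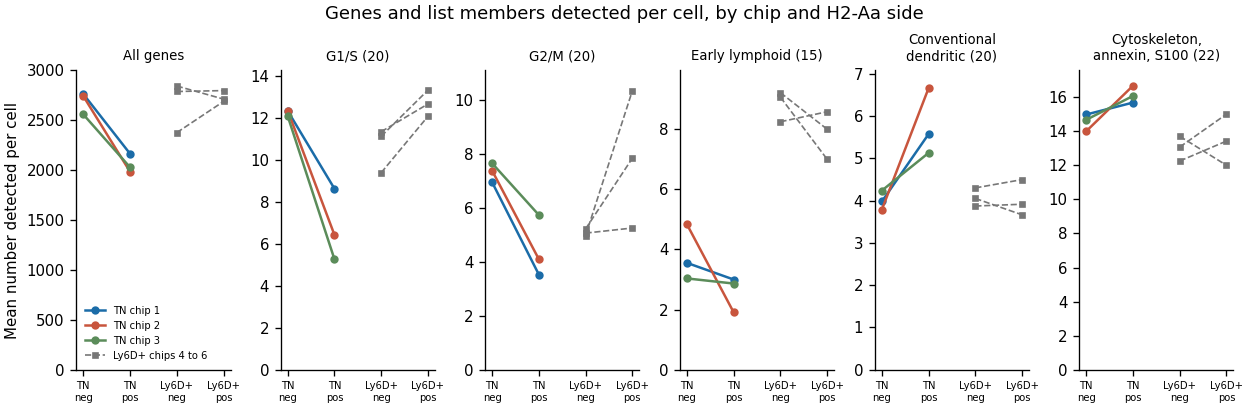
Mean number per cell of all detected genes and of the detected members of 5 gene lists (list size in brackets), with 1 line per chip from H2-Aa negative (neg) to positive (pos) cells, in TN (chips 1 to 3, solid) and Ly6D+ (chips 4 to 6, dashed). In TN, all genes and G1/S and G2/M members are lower in positive cells on all 3 chips, and in Ly6D+ G1/S and G2/M members are higher on all 3.

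The positive side itself was not uniform, and cells with a little H2-Aa looked unlike those with much. At a split of 1000 CPM, set after the values were seen and used for description only, 23 cells lay below and 32 above. All 32 high cells held Cd74 and Id2, 29 held H2-Ab1, 28 H2-Eb1, 20 Batf3, 18 Plbd1 and 14 Ciita. Of the 23 low cells 13 held Cd74, 10 Id2, 8 H2-Ab1, 5 H2-Eb1, 3 Batf3, 1 Plbd1 and none Ciita. For Plbd1 and Id2 the low cells lay near the negative cells, where 4.43% held Plbd1 and 33.5% Id2, against 4.35% and 43.5% of the low cells. Pooled over chips, Dntt was detected most often in low cells, in 13 of 23, then in 52 of 158 negative cells, and in none of the 32 high cells. On chip 2 the 7 low cells did not hold Dntt more often than the negative cells, where the share was 45.8%. Mpo was detected in 9 of 23 low, 64 of 158 negative and none of the high cells, and Siglech in 5, 16 and none. In the same sense 0 of 32 cells allows a share of up to 9.38%, in cells with fewer genes detected. Irf8 (25 of 32 high, 17 of 23 low and 130 of 158 negative cells), Cst3 (28, 22 and 140) and Kit (11, 8 and 54) were detected at like rates in all 3. The amount of Cst3 still differed, with a median of 8366 CPM in high, 589 in low and 517 in negative cells. Median genes detected were 1668, 2773 and 2764 in high, low and negative cells, while median reads were 712103, 808034 and 808019. G1/S members averaged 3.47, 11.6 and 12.3 per cell in the same order. By chip the G1/S means were 4.09, 3.36 and 2.71 in high, 14.9, 12.6 and 7.50 in low and 12.3, 12.4 and 12.1 in negative cells, so the low cells of chip 3 lay between the other groups and those of chip 1 above the negative cells. The high cells came from all chips, with 11, 14 and 7 on chips 1, 2 and 3.

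**Figure D5:**
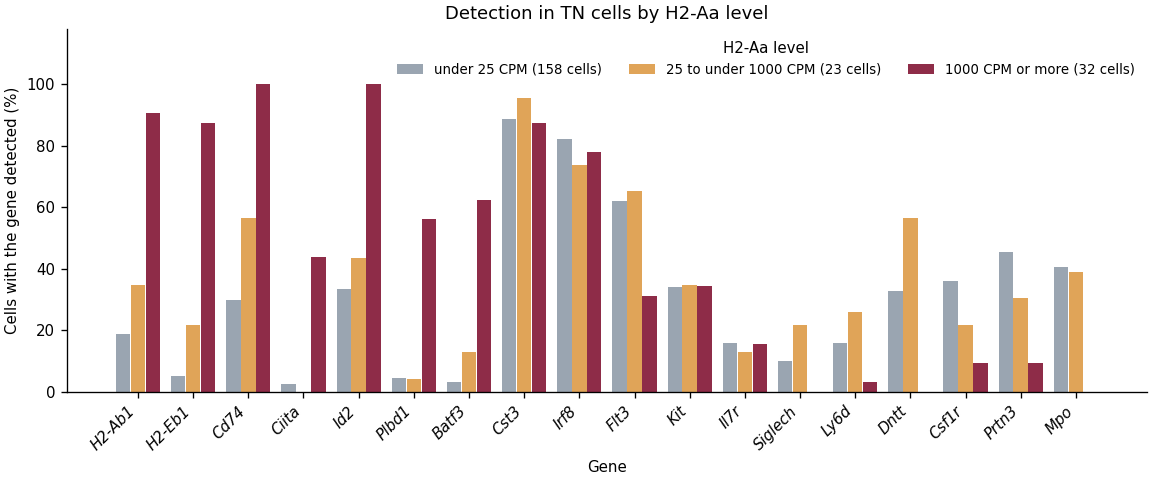
Share of TN cells in which each of 18 genes was detected, for cells with H2-Aa under 25 CPM (158), at 25 to under 1000 CPM (23) and at 1000 CPM or more (32). The shares for class II genes, Id2, Plbd1 and Batf3 are largest at the highest H2-Aa level, and Dntt, Siglech and Mpo are at 0% there.

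The same limit was applied to Ly6D+ cells to see whether H2-Aa went with the same genes there. Cd74 stood at 910, 1100 and 1080 CPM in the positive and at 29.1, 39.0 and 49.3 CPM in the negative cells of chips 4, 5 and 6, with no overlap. Its log2 fold change was 4.75 ± 0.46 (SE, adjusted p = 0.0215 by edgeR), and it was the 1 gene called, 0.00958% of 10436 tested (563 at an unadjusted p under 0.05). Without chip 4, which held 3 positive cells, no gene was called (262 at an unadjusted p under 0.05), and without chip 6 there were 4 calls. DESeq2 called 974 genes, 940 of them lower. H2-Ab1 stood at 266, 1067 and 730.5 CPM against 42.9, 20.6 and 83.2 CPM, with a log2 fold change of 3.76 ± 0.73 (SE, adjusted p = 0.920 by edgeR). H2-Eb1 stood at 135, 157 and 69.7 CPM against 18.3, 34.3 and 17.1 CPM, with a log2 fold change of 2.37 ± 1.22 (SE, adjusted p = 0.945 by edgeR). Cd74, H2-Ab1 and H2-Eb1 were thus higher in positive cells on every chip of both populations.

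Tests of the difference between populations called no gene of 11753 (edgeR, 444 at an unadjusted p under 0.05), and without chip 6 they called 1, Anxa2. In Ly6D+ cells Id2 stood at 53.8, 157 and 957 CPM on the positive and 94.2, 162 and 279 CPM on the negative side, without a common direction (interaction log2 difference 2.83, edgeR adjusted p = 1). Plbd1 was detected in none of the 21 positive Ly6D+ cells and Batf3 in 1. Cst3 stood at 598, 390 and 614 CPM against 387, 388 and 334.5 CPM (interaction log2 difference 2.09, edgeR adjusted p = 0.746). For H2-Eb1 the interaction was 4.16 with an unadjusted edgeR p of 0.000181 and an adjusted p of 0.479. Dntt was detected in 18 of 21 positive and 123 of 131 negative Ly6D+ cells, and median genes detected were 2774 and 2755. Most of the positive Ly6D+ cells had H2-Aa below 1000 CPM, 17 of 21, and all 17 held Dntt, as 13 of 23 low TN cells did. Of the 4 Ly6D+ cells above 1000 CPM, 3 held H2-Ab1, H2-Eb1 and Cd74 together, 3 held Id2 and 1 held Dntt. Each chip held 1 population, so chip and population cannot be told apart in this comparison.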

How the data were processed

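The authors deposited 1 table of raw read counts, genes by cells, without normalisation. Per the labels' protocols, capture used the Fluidigm C1 system, whole-length cDNA came from a SMARTer kit with template switching, and Nextera XT gave the libraries. These reads have no molecular identifiers and no strand, so a count is of reads and not of molecules. Per the submitters' processing notes, the genome was mm9 and the software R 3.2.0. Aligner, counter and annotation are not given in these sources. Cells with low coverage had been removed before deposit, as the design text of the series says. Doublets were not called here. Symbols came by Entrez identifier from a RefSeq table of GRCm38.p6 (23334 of 23427), as did promoter sequences (17805 genes of the count table matched).

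CPM is a count divided by its column sum, times 1000000. For each chip, the counts of the positive cells and of the negative cells were added up and tested with edgeR 4.0.16 (R 4.3.3; TMM, filterByExpr, quasi-likelihood F-test, chip as a block, Benjamini-Hochberg adjusted p under 0.05). The standard error of a log2 fold change is its size over the root of F. Both sides of a chip come from the same capture, which pairs them. Mice are not tied to chips in the labels, and p-values therefore cover the spread between chips only, which may be technical. Cells held 267852 to 1854600 reads, and were thinned to 200000 for values per cell, with an exact sign permutation over chips. DESeq2 1.42.0 and limma 3.58.1 were alternatives, beside other limits, other cell filters and leaving out each chip. The test was tried on simulated data for the TN contrast, 3 times per fold on at most 10450 genes. Recovery was 2.5% for 4-fold and 44.3% for 16-fold changes, and 1 of 16 and 9 of 275 calls were false. Changes were planted only in genes with higher mean counts. The simulated spread followed a trend over all genes and not the spread of each gene, so genes carried by few cells are not covered.

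The members, the gene lists and the tests were chosen with earlier results of these data known. Named genes were those past the threshold, every class II list member, a list of lineage genes with the rule, and list members named after their values were seen. Some listed genes are not reported here by name.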

Additional observations from a re-analysis of the deposited data

Results flagged for a closer look

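The number of division genes detected per cell went opposite ways with H2-Aa in the 2 populations, on every chip. TN positive cells held fewer of 20 G1/S genes than negative cells (difference −5.49 ± 1.60, SD, n = 3 chips), and Ly6D+ positive cells held more (2.07 ± 0.70). For 20 G2/M genes the differences were −2.87 ± 0.83 in TN and 2.72 ± 2.59 in Ly6D+. Erythroid and megakaryocyte genes showed the same contrast at a low level, with −0.147 ± 0.090 and 0.159 ± 0.037 genes per cell. These 3 of 26 quantities were picked because they were opposite on every chip, which fixes the outcome of a permutation over the chips, so no p is given and the difference between populations has no test independent of that choice. Chips 4, 5 and 6 gave 3, 12 and 6 positive cells, so the Ly6D+ means rest on few cells. H2-Aa levels differed too: 17 of 21 positive Ly6D+ cells lay below 1000 CPM, against 23 of 55 in TN. TN cells at 1000 CPM or more averaged 3.47 G1/S and 2.41 G2/M genes. Pooled over chips, positive TN cells below 1000 CPM averaged 11.6 and 7.04, near the 12.3 and 7.32 of negative cells. Their G1/S means on chips 1, 2 and 3 were 14.9, 12.6 and 7.50 against 12.3, 12.4 and 12.1 in negative cells. Chip 3 thus lay well below. The populations were not compared at like H2-Aa levels.

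Rrm1, a G1/S gene, had a log2 fold change of −1.16 ± 0.41 in TN and 1.33 ± 0.33 in Ly6D+ (SE), with unadjusted and adjusted edgeR p of the difference of 0.00113 and 1. Wdfy4, named among the conventional dendritic genes, had 1.48 ± 0.36 in TN and −0.56 ± 0.51 in Ly6D+ (SE), with 0.0041 and 1. Both were opposite on every chip of the 2 populations. They were picked for differing between the populations, so their unadjusted p is not independent of that choice and is a description.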

How the results depend on the processing

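The TN contrast gave 4 calls. It gave 9 with a limit of 100 CPM, 1 against negative cells without Mpo or Prtn3, 2 among cells with 1000 to 2500 genes, 0 without the cells holding Xist, 671 with DESeq2 and 1026 with limma. Leaving out each chip gave 0 to 4 calls, 0 without chip 2. Without the chip as a replicate block, and so without the pairing of sides, there were 2 calls (H2-Ab1 and Cd74). H2-Ab1, H2-Eb1, Cd74 and Id2 had the same direction in all 18 settings, with log2 fold changes of 5.30 to 6.92, 5.28 to 7.05, 4.67 to 6.67 and 1.89 to 5.16, and were called in 16, 12, 15 and 10 of them. The Ly6D+ contrast gave 1 call, 974 with DESeq2 and 0 to 4 with each chip left out, and the difference between populations 0 to 1. The difference in genes detected per cell was −508 with detection at 10 thinned reads. Irf8 turned to −0.24 with limma. Mpo and Prtn3 turned to 7.96 and 4.82 against negative cells chosen to lack them, which is how that setting is built. Of 610 values of 34 single genes under other settings, 529 kept direction and side of the threshold, 59 passed it only there, 19 no longer passed and 3 turned. The cause of the moved counts was not tested. The settings with 1000 to 2500 genes and without Xist, and those of the Ly6D+ contrast, were chosen after the data were seen.

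With 15 to 21 positive cells per chip, a gene found in few cells has a wide error. In simulation, 4-fold changes planted in genes with higher counts were seldom recovered. A gene without a call is therefore not shown to be equal on both sides.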
